A study of Zea mays with 9 samples.

Results

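Of the 63074 annotated maize transcripts whose reads were counted in the primary root growth zone, 27 transcripts of 26 genes were close to silent in well-watered and mildly stressed roots and were read in every severely stressed library. They were chosen by their measured reads, with at most 3 total reads in each of 3 well-watered and 3 mild stress libraries and at least 30 reads in each of 3 severe stress libraries. The difference between severe stress and the other treatments is therefore set by the selection and is described here without a test. All 27 are among the 46599 transcripts for which abundance was also deposited in CPM, the reads of a transcript scaled to the depth of its library.

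The libraries came from primary roots of inbred line B73 seedlings grown in the dark in moist vermiculite. Well-watered seedlings (replicates 1, 2 and 3) were held at -0.02 MPa, mildly stressed seedlings (replicates 1, 3 and 4) at -0.3 MPa and severely stressed seedlings (replicates 1, 2 and 5) at -1.6 MPa. The apical 1 cm was harvested 26 h after transplanting, and each replicate pooled the segments of 5 seedlings. The title of the series gives -0.03 MPa for the mild treatment, whereas the sample labels give -0.3 MPa, the value used here. The segment had a fixed length and was sequenced whole, so a change in its share of dividing, elongating and mature cells is part of every value. In such bulk tissue, fewer cells of a type and less RNA per cell cannot be told apart.

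In plant cells that lose water, abscisic acid builds up and is sensed by receptors that block protein phosphatases 2C and so release SnRK2 kinases, which switch on genes for protective proteins and solutes. Galactinol synthase makes galactinol, the sugar donor for raffinose and related oligosaccharides that accumulate in drying seeds and water-stressed tissue. Thiazole synthase (THI1) makes the thiazole ring of thiamine, vitamin B1. Phytosulfokine is a small sulfated peptide, cut from a longer precursor, that acts through a receptor kinase at the cell surface and promotes cell expansion and division, as known mainly from Arabidopsis and cell cultures.

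Only 3 of the 26 genes had a symbol that gives a role, and each of these roles belongs to the processes just named. GRMZM5G872256 (gols2, gols3 or ZmGOLS3) is a galactinol synthase, GRMZM2G018375 (thi1 or thi1-1) belongs to thiazole synthesis and GRMZM2G044194 (psk1) is a phytosulfokine precursor. GRMZM2G066801 carries the symbol MFSP, for which no role was given. RefSeq had an entry for 20 of the 26 genes, mostly with locus numbers alone, and the other genes are described here by identifier and structure only.

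The libraries held 33385679 to 52047078 reads on the listed transcripts, of which 48.1% to 48.7% were unique to a transcript. The detection floor was set at 3 reads, which is 0.0576 to 0.0899 CPM, and this floor and all counting intervals below cover counting error only, since PCR copies were not marked. Across 33201 transcripts, replicates of the well-watered and mild treatments correlated with a Pearson's r of 0.976 to 0.978 on the log2 scale. It was 0.973 between severe replicates 1 and 5, but 0.966 and 0.967 for the pairs with severe replicate 2. The dehydrin dhn1 (GRMZM2G079440_T01), a protective protein of water-stressed cells, reached 5.59 and 11.9 CPM in severe replicates 1 and 5 and 217 CPM in severe replicate 2. That library therefore stood apart from the others, and sums over the 27 transcripts are given with and without it. Genes of the growing root were measured in every library, with summed abundances of 418 to 434 CPM for 9 cyclin genes and of 56.2 to 58.9 CPM for the root hair gene rth3 in well-watered roots.

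**Figure D1:**
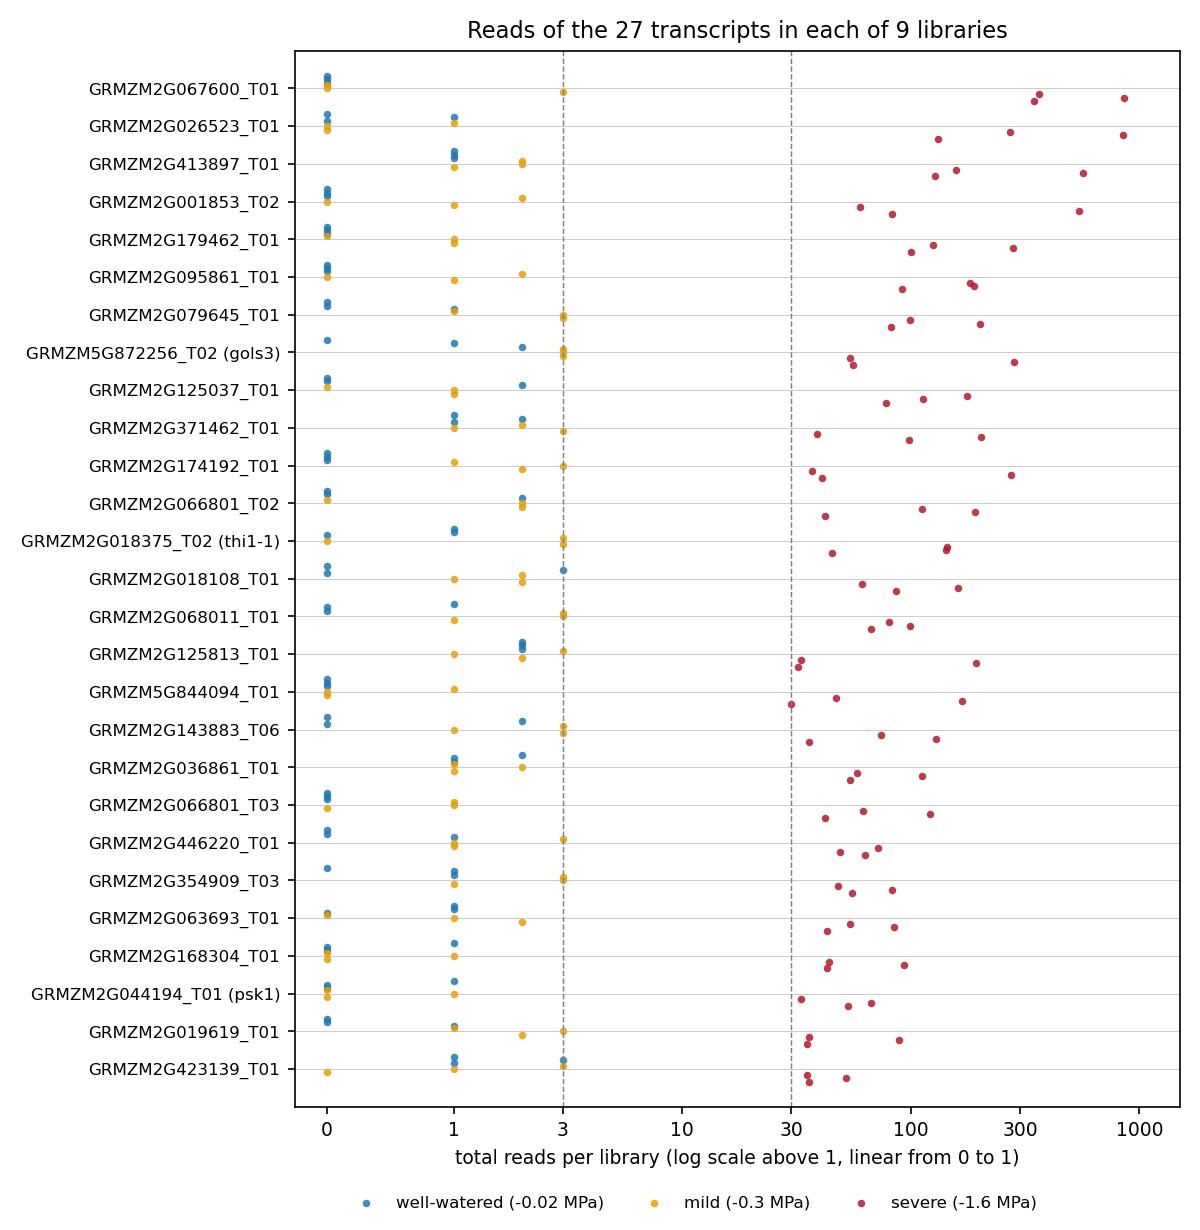
Total reads (x axis, log scale above 1) of each of the 27 transcripts (y axis, ordered by mean severe CPM) in every library, with 3 points per treatment set slightly apart in height. Dashed lines mark the limits of 3 and 30 reads used in the selection, and GRMZM2G067600_T01 at the top spans 345 to 858 reads under severe stress.

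The galactinol synthase transcript GRMZM5G872256_T02 lies on the plus strand of chromosome 9 in B73 RefGen_v3 and has 3 exons, from 134152466 to 134152930, 134153039 to 134153368 and 134153481 to 134154204. It had 0, 1 and 2 reads in well-watered replicates 1, 2 and 3, and 3 reads in each mild stress library. Under severe stress it had 54, 282 and 56 reads in replicates 1, 2 and 5, a mean of 2.71 ± 2.43 CPM (SD, n = 3). Replicate 2 was high at 5.50 CPM, against 1.04 and 1.58 CPM in replicates 1 and 5. Every mild stress library had more reads than any well-watered library, all of them at or below 3 reads. Summed over libraries and divided by depth, severe stress was 113-fold above well-watered roots (95% exact counting interval 38.4 to 550) and 36.1-fold above mild stress (18.8 to 79.5). Unique reads made up 7.40% of the severe reads. The gene's other transcript, GRMZM5G872256_T01, is an unspliced exon from 134152466 to 134154240 that covers the same bases.

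The thiazole synthesis transcript GRMZM2G018375_T02 lies on the minus strand of chromosome 8, with exons from 137677256 to 137677851 and from 137677942 to 137678959. It had 1, 1 and 0 reads in well-watered roots and 3, 0 and 3 reads under mild stress, so these groups overlapped. Under severe stress it had 144, 143 and 45 reads in replicates 1, 2 and 5, with replicate 5 the lowest, and a mean of 2.28 ± 0.871 CPM (SD, n = 3). This was 143-fold above well-watered roots (95% exact counting interval 39.4 to 1189). Its unique reads were 6.02% of the severe reads, and the rest were shared with transcript T01 of the gene, which is unspliced, or with other transcripts.

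The phytosulfokine precursor transcript GRMZM2G044194_T01 (psk1) lies on the minus strand of chromosome 7, with exons from 3025543 to 3025920 and from 3026037 to 3026306, and its gene has no other annotated transcript. It had 1, 0 and 0 reads in well-watered roots and 0, 1 and 0 reads under mild stress. Under severe stress it had 33, 67 and 53 reads in replicates 1, 2 and 5, all of them unique, and a mean of 1.14 ± 0.453 CPM (SD, n = 3). Severe replicate 1 was the lowest and replicate 5 the highest once divided by depth, and the severe libraries were 132-fold above the well-watered ones (95% exact counting interval 23.4 to 5256). Reads of psk1 were near the floor of the selection, so its fold rests on a single well-watered read.

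Among the genes without a named role, GRMZM2G067600_T01 was the most abundant per library and per length. It is a single exon on the plus strand of chromosome 3 from 214901790 to 214902528. It had no read in any well-watered library, 0, 0 and 3 reads in mild stress replicates 1, 3 and 4, and 365, 858 and 345 reads in severe replicates 1, 2 and 5. Every read was unique, and the mean under severe stress was 11.2 ± 5.02 CPM or 14.4 ± 6.44 RPKM (SD, n = 3), where RPKM also divides by transcript length. Severe stress was at least 452-fold higher than well-watered roots, when the latter are set to 3 reads over the group, and 433-fold above mild stress (95% exact counting interval 148 to 2101).

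GRMZM2G026523_T01, with 4 exons on chromosome 6 between 147008483 and 147013496, had 0, 1 and 0 reads in well-watered roots, 1, 0 and 0 under mild stress and 272, 851 and 132 in severe replicates 1, 2 and 5. Its mean was 8.52 ± 7.04 CPM (SD, n = 3) under severe stress, and 72.8% of its severe reads were unique. The highest and lowest severe libraries thus differed 4.46-fold, although each was far above all 6 other libraries. GRMZM2G413897_T01, a single exon on chromosome 3 from 20595877 to 20596906, had 1 read in every well-watered library, 2, 2 and 1 reads under mild stress and 157, 568 and 128 reads under severe stress. Its reads were all unique and its level was 5.90 ± 4.49 CPM (SD, n = 3).

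GRMZM2G001853_T02, with 2 exons on chromosome 10 between 109362843 and 109364087, had no well-watered read, 2, 0 and 1 reads under mild stress and 60, 542 and 83 reads under severe stress. GRMZM2G174192_T01, a single exon on chromosome 7 from 172699731 to 172701464, had no well-watered read, 1, 3 and 2 reads under mild stress and 37, 273 and 41 under severe stress. These 2 transcripts and GRMZM2G125813_T01 had the widest spread between severe libraries, with the highest 9.17, 7.49 and 5.94 times the lowest in CPM. In all 3 the highest library was severe replicate 2.

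Other abundant transcripts were more even. GRMZM2G095861_T01, a single exon on chromosome 5 from 178021546 to 178023424, had no well-watered read, 2, 0 and 1 reads under mild stress and 182, 188 and 91 reads under severe stress, or 3.24 ± 0.592 CPM (SD, n = 3). GRMZM2G125037_T01, with 3 exons on chromosome 6 between 153951311 and 153954091, had 0, 0 and 2 reads in well-watered roots, 0, 1 and 1 under mild stress and 176, 113 and 78 under severe stress. It was the only one of the 27 whose abundance was highest in severe replicate 1. GRMZM2G179462_T01, with 2 exons on chromosome 1 between 43986382 and 43987175, had no well-watered read, 0, 1 and 1 reads under mild stress and 125, 279 and 100 reads under severe stress.

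GRMZM2G079645_T01, with 2 exons on chromosome 7 between 167459116 and 167460517, had 0, 0 and 1 reads in well-watered roots, 1, 3 and 3 under mild stress and 99, 201 and 82 under severe stress. GRMZM2G371462_T01, the shortest of the set at 365 bases, is a single exon on chromosome 1 from 137141559 to 137141923. Its reads were 1, 2 and 1 in well-watered roots, 2, 1 and 3 under mild stress and 39, 202 and 98 under severe stress. Because it is short it ranked second per length, at 6.48 ± 4.20 RPKM (SD, n = 3). Together the 10 transcripts with the highest mean CPM carried 63.1% of the summed severe abundance of the 27.

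The smallest spread between severe libraries was that of GRMZM2G068011_T01, a single exon on chromosome 2 from 226206172 to 226207409. It had 1, 0 and 0 reads in well-watered roots, 3, 3 and 1 under mild stress and 80, 99 and 67 under severe stress, a 1.3-fold range in CPM. GRMZM2G095861_T01 and GRMZM2G423139_T01 followed with 1.43-fold and 1.51-fold ranges. GRMZM2G423139_T01, a single exon on chromosome 5 from 2923447 to 2924730, was also the least abundant, with 1, 3 and 1 reads in well-watered roots, 3, 1 and 0 under mild stress and 35, 52 and 36 under severe stress. Its 21.3-fold difference from well-watered roots (95% exact counting interval 8.87 to 66.6) was the smallest of those given by a ratio.

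Mean severe abundance of the 27 transcripts ran from 0.901 to 11.2 CPM with a median of 2.25 CPM, and from 0.576 to 14.4 RPKM with a median of 1.39 RPKM. Among all listed transcripts their mean severe CPM lay between percentiles 25.2 and 69.8, with a median of 41.2. None of them was thus among the most abundant transcripts of the severely stressed growth zone. The 3 with the fewest reads in their lowest severe library were GRMZM5G844094_T01 with 47, 167 and 30 reads, GRMZM2G125813_T01 with 33, 193 and 32, and GRMZM2G044194_T01 (psk1). Just outside the upper limit for the other treatments were GRMZM2G019373_T01 with 143, 2247 and 293 severe reads, GRMZM2G147491_T01 with 86, 1460 and 148, and GRMZM2G061806_T01 with 102, 642 and 131, each with a maximum of 4 reads in another library. Just below the lower limit for severe stress were AC186231.4_FGT002, GRMZM2G093708_T01 and GRMZM5G897067_T01, each with 28 reads in its lowest severe library.

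Summed over the 27 transcripts, the well-watered libraries 1, 2 and 3 held 0.350, 0.438 and 0.378 CPM, and the mild stress libraries 1, 3 and 4 held 1.01, 1.08 and 0.950 CPM. The severe libraries 1, 2 and 5 held 49.2, 120.7 and 56.3 CPM. The 3 treatments did not overlap, and severe replicate 2 was above the other severe libraries. The severe mean of 75.4 ± 39.4 CPM (SD, n = 3) was 194 times the well-watered mean, and 136 times without severe replicate 2. Against the mild stress mean it was 74.3 times as high, and 52.0 times without that library.

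**Figure D2:**
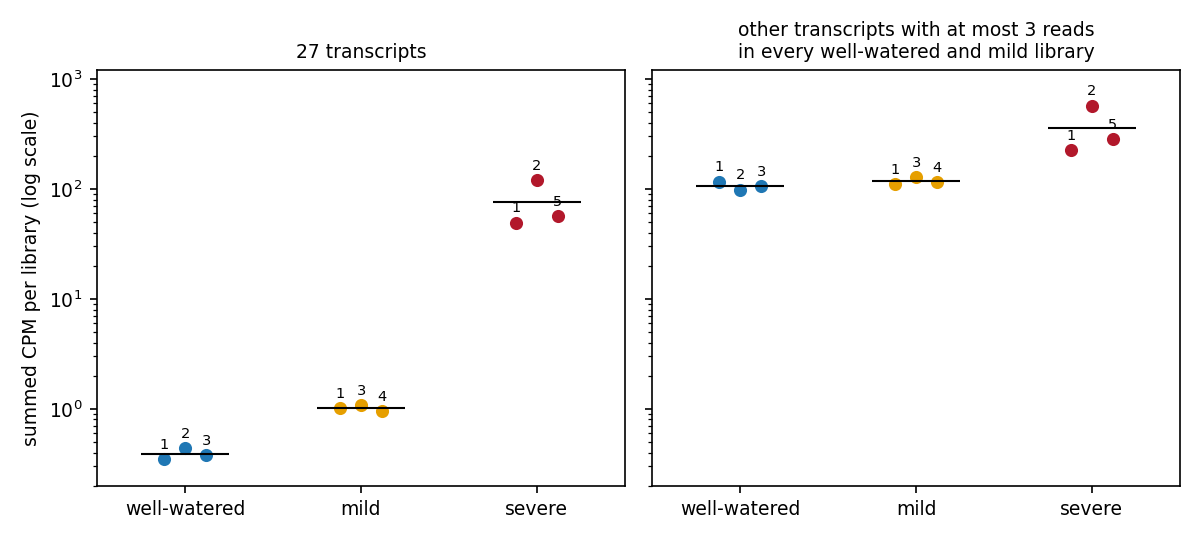
Summed CPM per library (y axis, log scale) of the 27 transcripts (left) and of 6960 other transcripts with at most 3 reads in every well-watered and mild stress library (right), with the replicate number above each point and a bar at the mean of 3. Transcripts silent in all well-watered and mild stress libraries are not among the 6960. The 27 transcripts summed to 0.350 to 0.438 CPM (well-watered) and 0.950 to 1.08 CPM (mild stress). The other transcripts summed to 98.4 to 116 CPM and 111 to 127 CPM, which overlap, and to 225.4, 569.8 and 283.5 CPM in severe replicates 1, 2 and 5.

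The same ceiling of 3 reads applied to well-watered and mild stress libraries, so their difference was bounded by the selection. The ceiling was reached by 13 transcripts under mild stress and by 2 in well-watered roots. Transcripts with more mild stress reads could not be among the 27. Of the 27 transcripts, 20 had more reads in the pooled mild stress libraries than in the pooled well-watered libraries, 6 had equal reads and 1 had fewer. There were 47 reads in all in well-watered roots and 116 under mild stress. Reads were absent from 47 of 81 values in well-watered roots and from 19 of 81 under mild stress, and 7 transcripts had no well-watered read whereas each of the 27 had at least 1 read under mild stress. The summed mild stress abundance was 2.61 times the well-watered one. For 6960 other transcripts under the same ceiling, without those silent in all of these libraries, this ratio was 1.10. They were not required to have reads under severe stress, so the ratios do not compare like with like.

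For 6 transcripts every mild stress library was above every well-watered library in CPM, and for none was it the reverse. The share of all transcripts with such a separation was not counted, so no response to mild stress is read from this number. In 2 of the 6 this held in reads as well, and in the other 4 the lowest mild and highest well-watered libraries were tied in reads and differed only by depth. These were the galactinol synthase transcript, GRMZM2G354909_T03, GRMZM2G446220_T01, GRMZM2G079645_T01, GRMZM2G174192_T01 and GRMZM2G019619_T01, each at 1 to 3 reads per mild stress library. GRMZM2G446220_T01, for example, had 0, 0 and 1 reads in well-watered roots, 3, 1 and 1 under mild stress and 72, 49 and 63 under severe stress. At such counts no single transcript could be separated from the well-watered roots. None of the 27 was called under mild stress at an FDR below 0.05 (edgeR's quasi-likelihood F-test), 3 had an unadjusted p below 0.05, and DESeq2 also called 0 with 3 below an unadjusted p of 0.05. Of all 46599 transcripts tested, 1.38% were called higher and 1.06% lower under mild stress. With at most 3 reads per library the 27 could hardly be called. Under severe stress all 27 were called higher than in well-watered roots, against 16.4% of all transcripts higher and 13.1% lower, and higher than under mild stress, against 13.8% higher and 10.4% lower. Both comparisons were used in the selection, and nothing is read from these counts.

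The spread of the 27 transcripts between severe libraries had a common direction. Abundance was highest in severe replicate 2 for 23 transcripts, in replicate 5 for 3 and in replicate 1 for 1. It was lowest in replicate 1 for 18 transcripts, in replicate 5 for 8 and in replicate 2 for 1. Of 39349 transcripts at a severe stress mean of 0.5 CPM or more, 43.7% were highest in replicate 2, 26.4% in replicate 1 and 29.9% in replicate 5. The ratio of replicate 2 to the mean of replicates 1 and 5 had a median of 1.99 over the 27 (range 0.605 to 6.05) and of 1.04 over the 39349. The ratio of replicate 5 to replicate 1 had medians of 1.28 and 1.02. The height of replicate 2 was not particular to the 27. Summed over the 27, replicate 2 was 2.29 times the mean of replicates 1 and 5, and summed over the 6960 other transcripts under the same ceiling it was 2.24 times. These are descriptions, since the transcripts share their libraries.

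**Figure D3:**
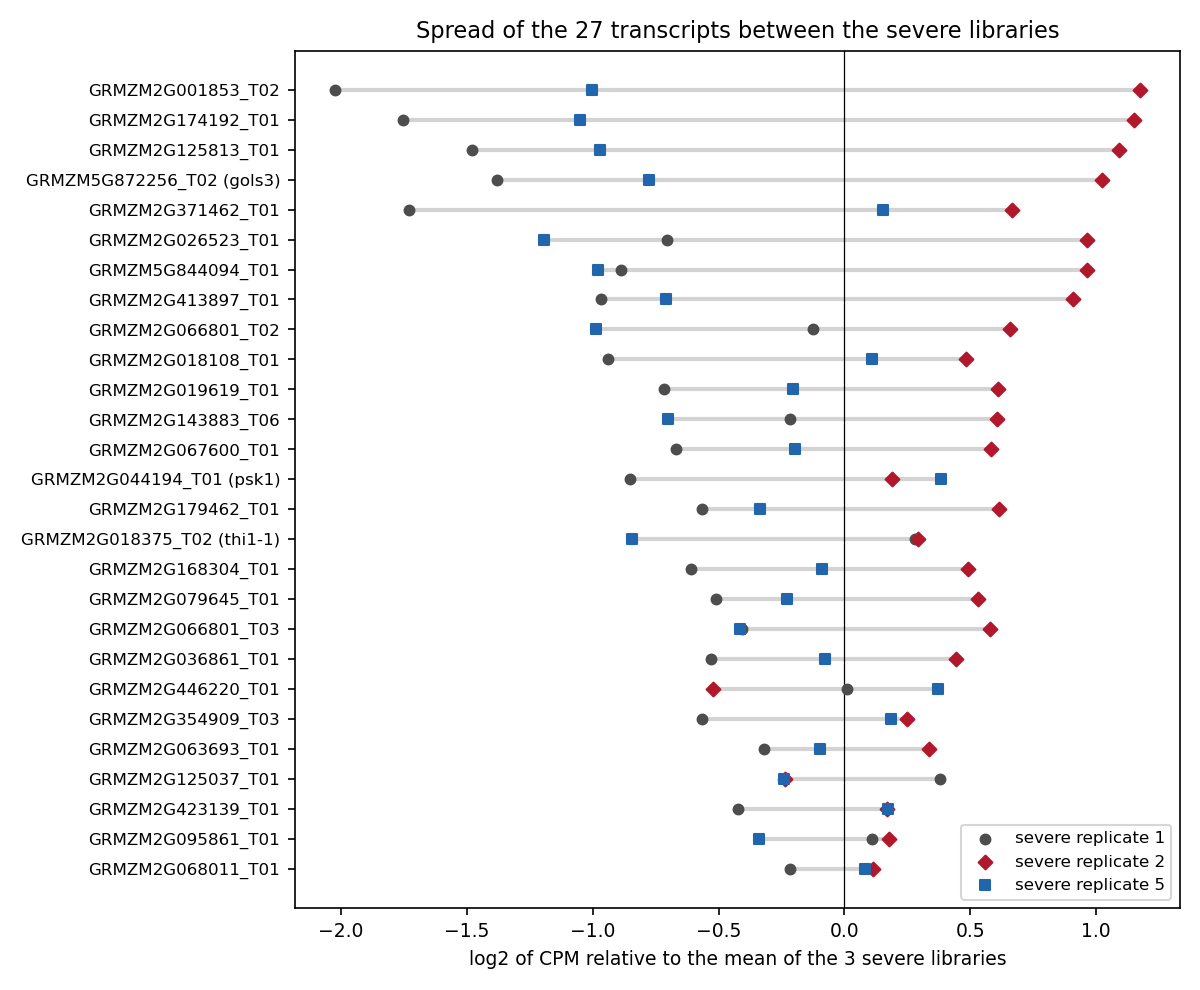
CPM in each severe library relative to the mean of the 3 severe libraries on a log2 scale (x axis), for each of the 27 transcripts (y axis, ordered by spread). Severe replicate 2 is the highest point for 23 transcripts, and the range from lowest to highest grows from 1.3-fold at the bottom to 9.17-fold at the top.

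The highest severe library exceeded the lowest by a median of 2.36-fold over the 27 transcripts, against 1.33-fold over the 39349. The range was within 2-fold for 9 transcripts and over 4-fold for 6. The 6 were GRMZM2G001853_T02, GRMZM2G174192_T01, GRMZM2G125813_T01, the galactinol synthase transcript, GRMZM2G371462_T01 and GRMZM2G026523_T01. In all 6 replicate 2 was highest, as it was for dhn1. The 4 exceptions were GRMZM2G446220_T01, in which replicate 2 was the lowest library, GRMZM2G125037_T01, psk1 and GRMZM2G423139_T01. Without severe replicate 2 the same limits added no transcript to the 27, which such a limit keeps by construction. What set replicate 2 apart was not tested.

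Most of the 27 transcripts had few exons. A single exon made up 9 of them (33.3%, against 20.3% of all 63074 transcripts), and the median number of exons was 2, against 4. More than 4 exons were found in 4 of them, GRMZM2G036861_T01 with 13, GRMZM2G066801_T02 with 7, and GRMZM2G354909_T03 and GRMZM2G063693_T01 with 6 each. Their length was 365 to 2732 bases with a median of 1519, close to the median of 1422 bases over all transcripts. The only annotated transcript of its gene was 15 of the 27 (55.6%, against 42.3%). The 26 genes lay on every chromosome but 4, with 4 genes each on chromosomes 1, 6, 7 and 9, 3 on chromosome 3, 2 each on chromosomes 2, 5 and 8, and 1 on chromosome 10. No pair of them lay within 50 kb, the closest pair being GRMZM2G079645 and GRMZM2G174192 on chromosome 7 at 5239214 bases.

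The reads of the 15 transcripts from genes with 1 annotated transcript were all unique. The other 12, from 11 genes, had 1.61% to 73.6% unique reads under severe stress with a median of 7.05%, and 7 of them were below 20%. The lowest shares were 1.61% for GRMZM2G354909_T03, 1.67% for GRMZM2G143883_T06 and 3.20% for GRMZM2G066801_T02. In GRMZM2G143883_T06, for example, severe replicates 1, 2 and 5 had 74, 129 and 36 reads, of which 2, 2 and 0 were unique. For such transcripts the value of the single transcript depends on how shared reads were divided, while the sum over the gene does not depend on the division within it.

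Summed per gene, 3 of these 11 genes met the same limits, namely GRMZM5G844094, GRMZM2G125037 and GRMZM2G026523. GRMZM2G143883, with 6 annotated transcripts, had 1, 7 and 2 reads in well-watered roots, 15, 13 and 17 under mild stress and 252, 833 and 284 under severe stress, of which the chosen transcript held 17.5%. Its reads were thus above the upper limit in every mild stress library. GRMZM2G066801 (MFSP), with 5 annotated transcripts of which 2 were chosen, had 7, 5 and 5 reads, then 12, 11 and 15, then 274, 528 and 155. The galactinol synthase gene had 3, 1 and 4 reads, then 7, 9 and 5, then 62, 357 and 88. GRMZM2G036861 had 2, 11 and 2 reads, then 5, 3 and 6, then 98, 174 and 81, the smallest ratio of severe to well-watered roots among the 11 at 20.3. In none of the 11 did severe and well-watered libraries overlap, and in none did the well-watered mean exceed 1 CPM. Each sum includes the chosen transcript, so the selection largely set this, and the share over all genes was not counted.

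**Figure D4:**
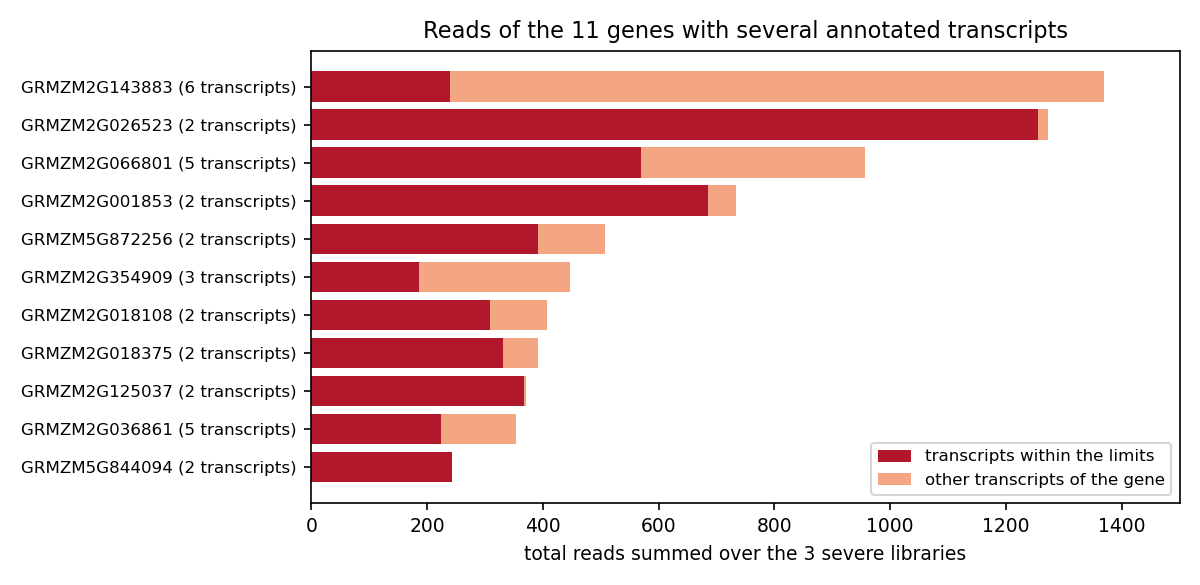
Total reads summed over the 3 severe libraries (x axis) for the 11 genes with several annotated transcripts (y axis), split into the chosen transcripts (dark) and the other transcripts of the gene (light). The chosen transcripts held 17.5% of the reads of GRMZM2G143883 and 98.6% of those of GRMZM2G026523.

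The other transcripts of these genes numbered 21, of which 16 were tested. All 16 were called higher under severe stress by edgeR (quasi-likelihood F-test, background 16.4%), with a median log2 fold change of 4.92, and 0 under mild stress. They share reads with the chosen transcripts and are not separate evidence. When unique reads alone were fitted the count fell to 2. Several of the 16, such as GRMZM2G143883_T05, had no unique read in any library and could not be tested. The value of GRMZM2G066801_T04 changed sign, but it then rested on 1, 3 and 1 reads in well-watered roots and 1, 1 and 1 under severe stress. The log2 fold change of GRMZM2G066801_T04 was 3.66 with total reads.

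Genes on either side of the 26 were examined as transcripts the selection did not use. The nearest listed gene on each side gave 52 flanking genes, at a median distance of 26600 bases, and no listed gene overlapped any of the 26. The most abundant transcript of each was called higher under severe stress for 19 (36.5%) and lower for 11 (21.2%) by edgeR's quasi-likelihood F-test. Over the most abundant transcripts of all genes, 22.7% were called higher and 18.7% lower. Of 15 flanking genes within 5 kb, 6 were higher and 2 lower. Under mild stress 1 of the 52 was higher and 2 were lower, against 2.1% higher and 1.6% lower over the most abundant transcripts of all genes.

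**Figure D5:**
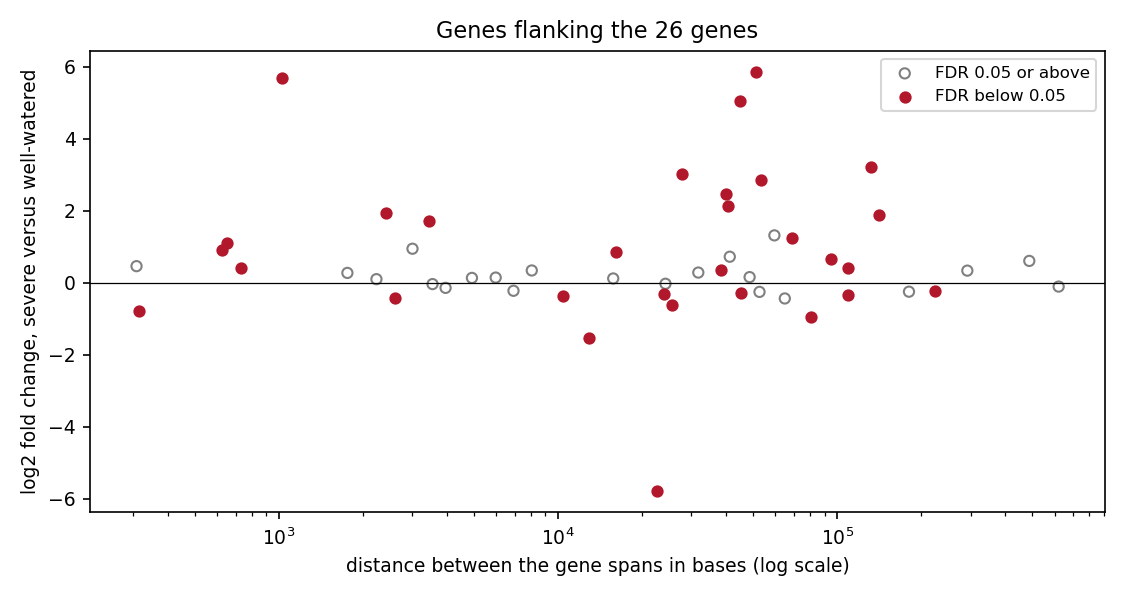
Log2 fold change between severe stress and well-watered roots (y axis) of 52 genes flanking the 26 genes against the distance between gene spans in bases (x axis, log scale), with filled points for an FDR below 0.05 (edgeR). Calls lie on both sides of 0 at short and long distances, with 19 higher and 11 lower.

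Neighbours moved in both directions. Beside GRMZM2G026523, GRMZM2G322220_T01 at 315 bases was lower, from 12.9 to 8.02 CPM, with a log2 fold change of -0.79 (SE 0.141, edgeR FDR 0.00262). Beside the top transcript's gene GRMZM2G067600, GRMZM2G370193_T01 at 25500 bases was lower, from 215.8 to 150.5 CPM (log2 fold change -0.62, SE 0.0930, edgeR FDR 0.001). Beside GRMZM2G125813, GRMZM2G425482_T01 at 2410 bases was higher, from 17.9 to 73.3 ± 13.6 CPM (log2 fold change 1.92, SE 0.143, edgeR FDR 2.6e-05). GRMZM2G158232_T01, whose symbol names a small heat shock protein, lay 53363 bases from GRMZM2G413897 and rose from 0.555 to 4.34 ± 0.672 CPM (log2 fold change 2.86, SE 0.206, edgeR FDR 2.1e-05). These 4 neighbours were read in well-watered roots. Of the 19 flanking genes called higher, 4 others had at most 3 reads in every well-watered library. Beside GRMZM2G079645, GRMZM2G417933_T01 at 1026 bases had 0 reads in all well-watered and mild stress libraries and 8, 9 and 5 reads under severe stress (edgeR FDR 0.00595), a call that DESeq2 did not make. Beside psk1, GRMZM2G438652_T01 at 51066 bases had no well-watered read, 1, 0 and 2 reads under mild stress and 11, 9 and 5 under severe stress (edgeR FDR 0.00434). Beside GRMZM2G179462, GRMZM2G319781_T01 at 44639 bases had 0, 1 and 1 reads, then 7, 20 and 9, then 22, 59 and 17 (edgeR FDR 0.00189). Beside GRMZM2G354909, GRMZM2G053977_T03 at 39884 bases had 1, 3 and 2 reads, then 5, 3 and 4, then 6, 29 and 9 (edgeR FDR 0.0186). None of these 4 reached 30 reads in all severe libraries. On the other side of GRMZM2G079645, GRMZM2G124078_T01 at 22657 bases fell from 3.12 to 0.0542 CPM (log2 fold change -5.80, SE 0.621, edgeR FDR 0.000168). On the other side of psk1, GRMZM2G044174_T01 at 12899 bases fell from 7.29 to 2.70 CPM (log2 fold change -1.54, SE 0.171, edgeR FDR 0.000201).

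The gene model next to GRMZM2G036861 needs care. GRMZM2G036697_T01 lies 731 bases away on the same strand, and RefSeq places both identifiers in a single gene of assembly Zm-B73-REFERENCE-NAM-5.0. It went from 34.7 CPM (well-watered) to 49.2 CPM (severe stress), a log2 fold change of 0.40 (SE 0.0780, edgeR FDR 0.00439). That neighbour was thus read under all treatments. If both identifiers are a single gene, that gene was read in well-watered roots and GRMZM2G036697 is not a flanking gene. It is counted here among the 19 flanking genes called higher.

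The relatives of the 3 named genes were taken from lists of symbols. No other galactinol synthase matched. For thiamine synthesis, both other tested transcripts were higher under severe stress (background 16.4%). The paralog thi1-2 (GRMZM2G074097_T01, chromosome 3) had 233, 399 and 315 reads in well-watered roots, 373, 330 and 451 under mild stress and 4061, 5568 and 2266 under severe stress, all unique. Severe libraries lay above all others, at 83.5 ± 22.8 CPM against 7.82 ± 1.24 CPM (SD, n = 3), a log2 fold change of 3.31 (SE 0.197, edgeR FDR 9e-06). THIM (GRMZM2G094558_T01) rose from 1.44 ± 0.321 to 2.83 ± 0.389 CPM (SD, n = 3), a log2 fold change of 0.86 (SE 0.219, edgeR FDR 0.0152), a call that was lost without severe replicate 2. The thiamine genes thus included thi1-2 and THIM, which were read under all treatments, and thi1-1, which was close to silent outside severe stress.

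Of the 4 other phytosulfokine precursor transcripts, 0 were higher and 1 was lower under severe stress (background 16.4% and 13.1%). PSK2 (GRMZM2G079290_T01) had 379, 600 and 515 reads in well-watered roots, 491, 333 and 503 under mild stress and 469, 452 and 347 under severe stress. Its abundance fell from 12.4 ± 1.40 to 9.20 ± 0.514 CPM (SD, n = 3), a log2 fold change of -0.53 (SE 0.126, edgeR FDR 0.0113), with 7.12% unique reads, and the call was lost when unique reads were used. PSK3 (GRMZM2G084859_T01) went from 0.264 to 0.774 CPM without passing the test (log2 fold change 1.39, SE 0.487, edgeR FDR 0.0594). When unique reads alone were fitted, PSK3 was called higher (log2 fold change 1.34), as it was without TMM factors, so which relative of psk1 passed the test depended on the reads counted.

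Genes of abscisic acid signalling and of cell protection were counted beside them, all read against 16.4% higher and 13.1% lower over all transcripts. Of 16 transcripts of abscisic acid receptors 0 were higher and 6 lower by edgeR. At an unadjusted p below 0.05 edgeR had 1 receptor higher, and DESeq2 called 1 higher. Of 41 protein phosphatase 2C transcripts 14 were higher and 3 lower, and of 18 SnRK2 kinase transcripts 8 were higher and 1 lower. With unique reads alone 10 SnRK2 transcripts could be tested, and 0 were higher by edgeR, also at an unadjusted p below 0.05, and 1 was lower. Of 9 dehydrin and LEA transcripts, which code for hydrophilic protective proteins, 5 were higher and 2 lower. In dhn1 the reads were 17, 18 and 16 in well-watered roots, 10, 15 and 40 under mild stress and 291, 11137 and 422 under severe stress (log2 fold change 7.38, SE 1.51, edgeR FDR 0.00538). Without severe replicate 2 the log2 fold change was 4.24 and still called. Lea14A (GRMZM2G050607_T01) went from 0.154 to 1.57 CPM (log2 fold change 3.19, SE 0.479, edgeR FDR 0.00105). None of 3 oleosin and globulin transcripts, which mark seed tissue, was called by edgeR or DESeq2, and 1 was lower at an unadjusted p below 0.05. Both dhn1 and Lea14A exceeded 3 reads in some well-watered library and so were not among the 27.

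Calls in the lists of NAC factors, heat shock factors and heat shock proteins were mostly upward. Of 46 NAC factor transcripts 15 were higher and 1 lower, of 23 heat shock factor transcripts 7 were higher and 0 lower, and of 22 heat shock protein transcripts 9 were higher and 3 lower, against the same 16.4% and 13.1%. The lists were matched by symbol, and 22 of the 26 genes had none, so these families could not be looked for among the 27.

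Marker genes of root tissue also shifted under severe stress. The root hair gene rth3 was 42.4 to 46.6 CPM under severe stress, below its 56.2 to 58.9 CPM in well-watered roots. Both its transcripts were called lower by edgeR (background 13.1%), with 7.4% and 4.3% unique reads, and with unique reads alone 1 of 2 was called lower. The root patterning gene rtcs was 8.70 to 9.11 CPM against 1.55 to 2.93 CPM. The 9 cyclin genes summed to 356 to 388 CPM against 418 to 434 CPM, with 7 of 20 transcripts lower and 1 higher (background 13.1% and 16.4%). With unique reads 5 of 17 cyclin transcripts were called lower by edgeR, and 7 were lower at an unadjusted p below 0.05. In both cases 0 were higher. The 9 genes of Rubisco small subunits and light harvesting proteins, which mark green tissue, summed to 6.88 to 8.19 CPM against 4.87 to 5.09 CPM. Under mild stress they summed to 4.90 to 6.23 CPM. Only 4 of their transcripts were tested, and 1 was called higher and 0 lower under severe stress (background 16.4% and 13.1%). No marker gene was at 0 in all libraries, and the part of tissue composition in the levels of the 27 transcripts was not tested.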

How the data were processed

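RNA-seq of the apical 1 cm of the B73 primary root gave 9 libraries, 3 per treatment. The authors trimmed and mapped reads to the B73 RefGen_v3 gene models with CLC Workbench 6.8.1 and deposited total and unique read counts, RPKM and transcript annotation per library. The authors' CPM, which the submitters' notes credit to edgeR, equal total counts scaled by their sum across all 46599 transcripts they list, to within 5e-07. How reads matching several transcripts were divided is not given in the sources used here. The library kit does not mark strand.

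Total counts of the listed transcripts were fitted in edgeR 4.0.16 (R 4.3.3) with TMM factors and treatment as the only term, by the quasi-likelihood F-test with Benjamini-Hochberg adjustment over all 46599 transcripts, called at an FDR below 0.05. Standard errors are those of log2 fold changes. The script was tested on simulated data. Tables and figures were made with pandas 2.3.3, scipy 1.17.1 and matplotlib 3.10.9 (Python 3.11.15). Replicates were pooled seedlings, and p-values measure the spread between these pools. The members and lists were chosen with earlier results of these data known.

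Transcripts were named as the 10 most abundant under severe stress, the members of the gene lists (here those with a symbol), the 3 nearest the limits on each side, the 3 most and 3 least variable, and those of genes with another abundant transcript. Other names were chosen after their values were seen. Names came from RefSeq (Zm-B73-REFERENCE-NAM-5.0), which matched 18845 of 39323 genes. The table holds symbols and no descriptions, so lists planned by description were matched by symbol, a choice made after seeing the data, and promoter motifs were not examined. Alternatives were DESeq2 1.42.0, no TMM factors, other filters and limits, unique reads, sums per gene, fits of 2 treatments, a replicate block and each library left out.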

Additional observations from a re-analysis of the deposited data

How the results depend on the processing

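The number of transcripts within the limits depended on the limits. It was 27 with at most 3 reads outside severe stress, and 0, 6 and 150 with at most 0, 1 and 10 reads. A minimum of 20 or 60 severe reads gave 57 or 10, and limits set as CPM at the median library gave 16, of which 15 were among the 27. Unique reads gave 18 (17 shared) and sums per gene 20 (18 shared). Leaving out single libraries gave 27 to 44 transcripts, since a limit on every library can only add members when a library is dropped, with 44 without mild replicate 4 and 41 without severe replicate 1. With the same limits, chosen after seeing the data, 0 transcripts were on under mild stress only and 3 in well-watered roots only.

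Calls under mild stress numbered 1134 in all, 2339 with DESeq2, 1876 with unique reads and 554 to 1427 when single libraries were left out. Without TMM factors the median log2 fold change of severe stress moved from 0.00 to 0.11, and calls from 7634 higher and 6120 lower to 9151 and 4399 (severe against mild, from 6438 and 4852 to 7638 and 3728). Of other transcripts of the 26 genes, 16 were called higher, 1 with a minimum of 1 CPM in 3 libraries, since few were then tested, and 2 with unique reads. GRMZM2G066801_T04 had a log2 fold change of -0.97 with unique reads, of which it had at most 3 in any library, too few to read a reversal from. Among the lists, unique reads took SnRK2 kinases called higher from 8 to 0 and the block took heat shock factors from 7 to 4. Flanking genes called higher were 16 to 19 with single libraries left out. With unique reads 25 of the 27 were called higher under severe stress, a comparison the selection used, against 6353 of all 40790 transcripts tested.

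Same-numbered replicates did not deviate together (r of -0.01 to 0.04), so the numbers were not taken to pair samples. With the replicate number as a block, calls were 7453 for severe stress (13754 without), 145 for mild stress and 914 for severe against mild (11290 without), and 10 flanking genes were higher, because samples with numbers of their own then add nothing. With the block all 27 were called higher than in well-watered roots, as were 4527 of all 46599 transcripts. Against mild stress 4 of the 27 were called higher, and 684 of all transcripts. The selection used both comparisons, so these counts say nothing further about the 27. At 3 reads or fewer, levels outside severe stress cannot be ranked transcript by transcript.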

Other observations

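The same limits found 5 transcripts that were on under both deficits and off in well-watered roots. Their unique reads and gene sums were not examined, so whether the genes as a whole were off was not tested. A pair came from In2-1 (GRMZM2G042639, also saf1), a gene known to respond to herbicide safeners, whose transcript T02 had 0, 1 and 0 reads in well-watered roots, 50, 33 and 40 under mild stress and 134, 112 and 140 under severe stress. The glutathione S-transferase transcript gst8 (GRMZM2G156877_T03) had 1, 3 and 0 reads, then 251, 72 and 160, then 310, 379 and 518. GRMZM2G034421_T01 went the other way between deficits, with 2, 0 and 0 reads, then 236, 147 and 126, then 85, 59 and 69. In these transcripts severe replicate 2 did not stand out as it did for most of the 27. A single transcript, GRMZM2G033767_T01, was lost under severe stress only, with 35, 36 and 38 reads in well-watered roots, 44, 46 and 38 under mild stress and 1, 2 and 0 under severe stress.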
